A study of Homo sapiens with 6 samples.

Results

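The Notch pathway and its targets were followed in MOLM-14 cells, a human acute myeloid leukaemia line with an MLL-AF9 rearrangement, after inhibition of the Mediator kinases. The 10 member genes were chosen by name, with earlier results of these data known. They are 2 receptors (NOTCH1 and NOTCH2), the DNA-binding factor RBPJ and 3 Deltex genes (DTX1, DTX3 and DTX4). The others are the feedback inhibitor NRARP and 3 repressor genes (HES1, HES4 and HEY1). The members were read by 23 probe sets annotated to 1 of them alone, of 54613 probe sets tested, and they are 10 of 19775 genes measured. There were 3 DMSO samples and 3 samples in 10 nM cortistatin A (CA), a steroidal alkaloid that inhibits CDK8 and CDK19, each kept for 24 h and hybridised to 1 Affymetrix U133 Plus array. All 6 came from the same unmodified line, and the labels describe triplicate wells, so p-values rest on the spread between these wells alone, which may be technical. The labels name 2 ways of isolating RNA (a column kit and TRIzol) without saying which sample had which, so its part in the values was not tested. Values are log2 intensities made by RMA, and a level of 1 probe set cannot be set against that of another.

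Notch receptors are cut after they bind a ligand on a neighbouring cell, and the freed intracellular domain enters the nucleus, where it joins RBPJ and a Mastermind coactivator and switches target genes on. HES and HEY genes, NRARP and DTX1 are classical targets. CDK8 with cyclin C is a known kinase of the intracellular domain, which it marks for degradation through the ubiquitin ligase FBXW7. In blood, Notch is best known for directing progenitors to the T cell fate, and its part in myeloid leukaemia differs between settings.

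Under CA, DTX4 rose 4.0-fold and HES1 3.24-fold on its probe set of highest mean, while NRARP rose 1.23-fold. The receptors, RBPJ, HEY1, DTX1 and DTX3 had no probe set called, and HES4 was higher by 0.50 on the log2 scale without passing the test. Per probe set, 4 of 23 were called higher (17.4%) and 0 lower. Of all probe sets, 5.01% were called, 3.0% higher and 2.01% lower. At an unadjusted limma p under 0.05, 8 of the 23 were higher and 0 lower, where 9.09% of all probe sets were higher and 9.38% lower. Because the members were chosen with earlier results known, these shares describe the list and do not test it. The 4 called belonged to 3 genes, 2 of them to HES1. The CA values all lay above the DMSO values in 9 of the 23 and all below them in 1. Over all probe sets such groups were found in 25.1%, with 12.1% higher and 13.1% lower. The median change was 0.05 over the 23 probe sets and -0.01 over all probe sets (log2). Calls are from limma's moderated test over all probe sets at an adjusted p under 0.05 (Benjamini-Hochberg).

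**Figure D1:**
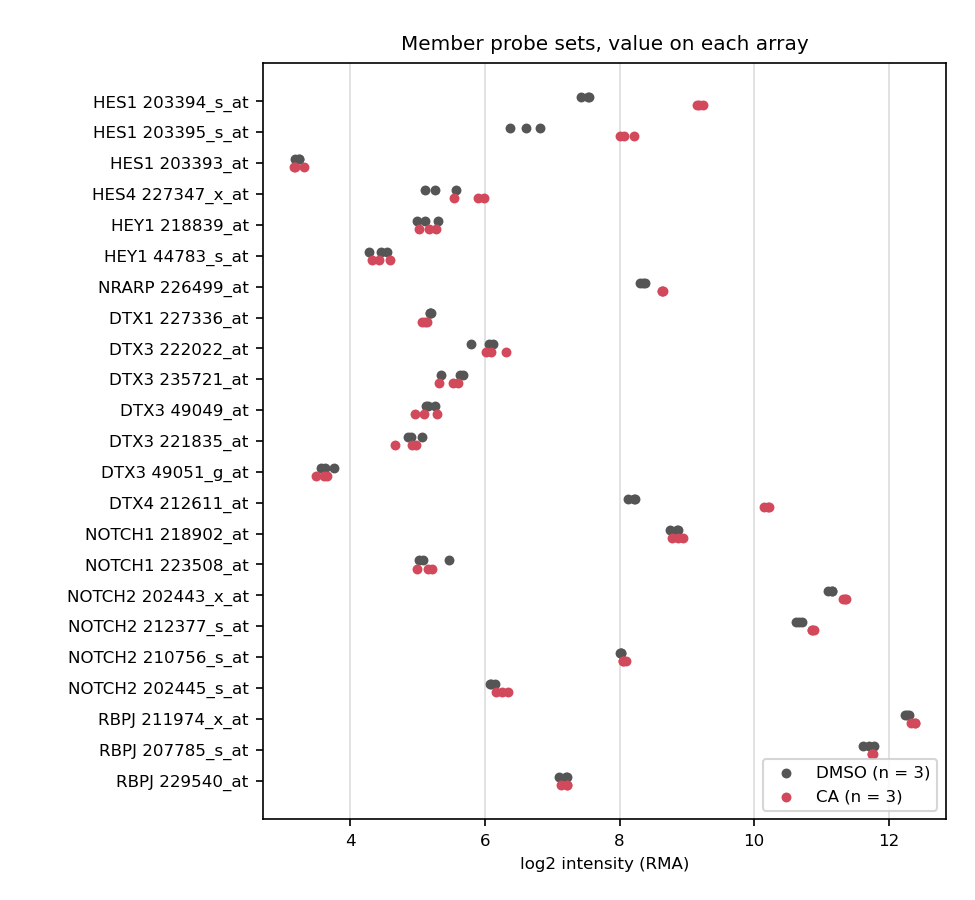
Each point is the log2 intensity of 1 member probe set on 1 array (grey, 3 DMSO; red, 3 CA), with rows grouped by gene. The groups stand far apart for DTX4 and for 2 of the 3 HES1 probe sets, and they lie close together or overlap elsewhere.

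HES1 encodes a basic helix-loop-helix repressor and is the target most often used to read Notch activity. Probe set 203394_s_at was at 7.52, 7.54 and 7.42 in the 3 DMSO samples and at 9.15, 9.23 and 9.19 in the 3 CA samples (log2). The groups did not overlap, and the change was 1.70 (SE 0.05, 95% confidence interval 1.57 to 1.82, limma adjusted p = 6.78e-05 over all probe sets). Probe set 203395_s_at was at 6.37, 6.82 and 6.62 in DMSO and at 8.06, 8.22 and 8.0 in CA. It rose 2.82-fold (1.49, SE 0.12, limma adjusted p = 9.21e-04), with more spread in DMSO (SD 0.22, n = 3) than the first. In both probe sets every CA value was above every DMSO value.

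The third HES1 probe set did not follow them. Probe set 203393_at was at 3.23, 3.24 and 3.17 in DMSO and at 3.17, 3.31 and 3.18 in CA, and the groups overlapped. Its change was 0.01 (95% confidence interval -0.13 to 0.14, limma adjusted p = 0.97). On all 6 arrays this probe set lay below the array's lower quartile, which was 4.11 to 4.14, a level at which a change may not register. The annotation gives 203393_at and 203394_s_at the same source accession, and the place of their probes along the transcript was not used here. With CA, 203394_s_at rose by 1.69 more than 203393_at, and 203395_s_at by 1.49 more (log2). Each difference had an exact 2-sided permutation p = 0.1, the lowest that 3 against 3 can give. The disagreement was known before these tests were chosen, so they add nothing to the values. Between the 2 responding probe sets, 203394_s_at minus 203395_s_at averaged 0.90 ± 0.23 (SD, n = 3) without and 1.10 ± 0.08 (SD, n = 3) with CA. That difference of 0.20 had an exact 2-sided permutation p = 0.3, where 3 against 3 cannot go below 0.1. When the _x_at and _s_at probe sets, whose probes may match more than 1 transcript, were left out, HES1 was represented by 203393_at alone and was not called (0.01, limma adjusted p = 0.965 per gene). With all HES1 probe sets averaged, the change per gene was 1.07 (limma adjusted p = 1.0e-04), so its size depended on the probe sets used. The GAPDH control probe sets at the 3' and 5' ends of the transcript, a measure of intact RNA, lay 0.38 ± 0.02 (SD, n = 3) apart without and 0.48 ± 0.05 (SD, n = 3) apart with CA (log2). The groups did not overlap, and the exact permutation p = 0.1 is the lowest possible. From the 3' end to the middle it was 0.07 ± 0.03 (SD, n = 3) without and 0.14 ± 0.03 (SD, n = 3) with CA, again without overlap (exact permutation p = 0.1). For ACTB the distance from 3' to 5' was 2.27 ± 0.13 (SD, n = 3) without and 2.38 ± 0.07 (SD, n = 3) with CA, and the groups overlapped (exact permutation p = 0.3). Their part in the probe set values was not tested.

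**Figure D2:**
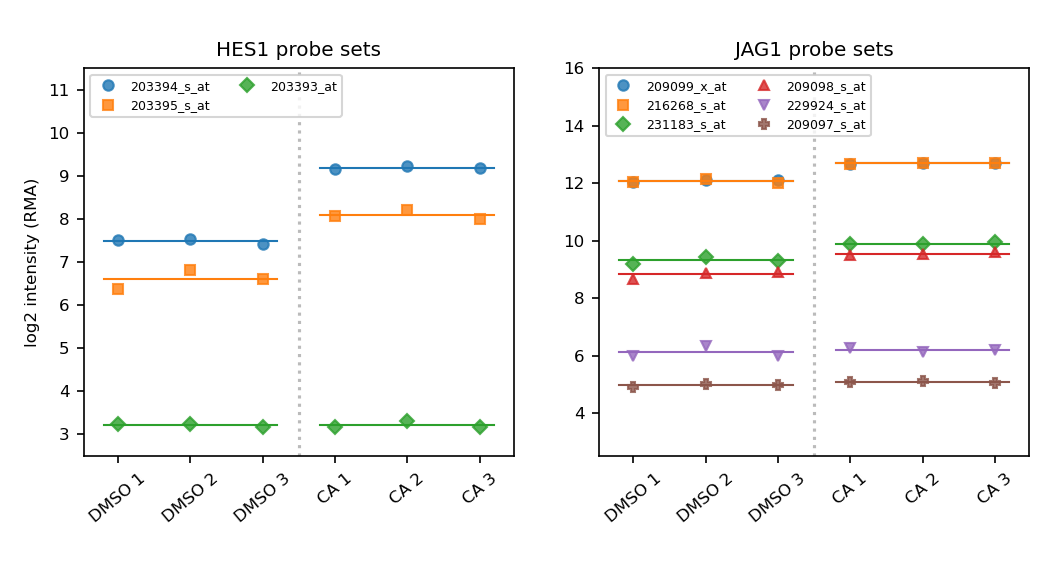
Points are the log2 intensity of each probe set of HES1 (left) and of the ligand gene JAG1 (right) on the 3 DMSO and 3 CA arrays, and bars are group means. For HES1, 203394_s_at and 203395_s_at step up in CA and 203393_at stays near 3.2. For JAG1, 4 of 6 probe sets step up, 209097_s_at is slightly higher in CA without overlap, and the groups of 229924_s_at overlap.

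The promoter window of HES1 holds 2 matches to the core motif of RBPJ. RefSeq's promoter table (GRCh38.p14, 250 bases before to 50 after each start) holds 12 entries for 7 of the 10 members. The motif TGGGAA, the core that RBPJ binds, was searched on both strands (TTCCCA on the other). Of 35116 promoters in the table, 24.0% hold at least 1 match and 3.8% hold 2 or more. The HES1 matches lie at -84 to -79 and -70 to -65 from its start, both on the gene's strand, and the first also fits the longer GTGGGAA, which contains the core and occurs in 6.25% of promoters. HES4 has 1 match, at -76 to -71, which fits the longer form too. The second of the RBPJ gene's 5 entries also has 2 matches, on opposite strands. In the windows of NRARP, NOTCH1, NOTCH2 and both starts of DTX4 these letters are absent, which covers these 300 bases only. The windows of the 3 genes called higher and of HES4 are printed from 5′ to 3′ on the gene's strand, with TGGGAA matches in capitals.
HES1, chr3:194135898-194136197, plus strand: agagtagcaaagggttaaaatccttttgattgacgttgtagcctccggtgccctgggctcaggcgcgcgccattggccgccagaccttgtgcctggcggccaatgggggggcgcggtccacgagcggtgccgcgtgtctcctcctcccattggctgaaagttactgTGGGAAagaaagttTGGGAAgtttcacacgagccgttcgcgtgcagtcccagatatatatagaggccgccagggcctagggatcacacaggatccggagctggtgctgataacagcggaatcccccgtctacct
HES4, chr1:1000048-1000347, minus strand: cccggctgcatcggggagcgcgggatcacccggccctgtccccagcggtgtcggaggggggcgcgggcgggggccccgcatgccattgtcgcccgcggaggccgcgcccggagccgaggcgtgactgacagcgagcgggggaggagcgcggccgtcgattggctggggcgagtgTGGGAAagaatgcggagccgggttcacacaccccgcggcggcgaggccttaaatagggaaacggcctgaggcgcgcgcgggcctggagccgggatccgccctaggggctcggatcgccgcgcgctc
NRARP, chr9:137302222-137302521, minus strand: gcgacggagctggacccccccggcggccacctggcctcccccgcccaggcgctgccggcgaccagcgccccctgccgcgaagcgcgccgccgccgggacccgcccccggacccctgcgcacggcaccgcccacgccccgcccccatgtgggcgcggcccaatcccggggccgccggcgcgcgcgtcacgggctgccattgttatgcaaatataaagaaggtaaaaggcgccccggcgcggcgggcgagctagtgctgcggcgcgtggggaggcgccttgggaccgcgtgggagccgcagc
DTX4 second start, chr11:59171882-59172181, plus strand: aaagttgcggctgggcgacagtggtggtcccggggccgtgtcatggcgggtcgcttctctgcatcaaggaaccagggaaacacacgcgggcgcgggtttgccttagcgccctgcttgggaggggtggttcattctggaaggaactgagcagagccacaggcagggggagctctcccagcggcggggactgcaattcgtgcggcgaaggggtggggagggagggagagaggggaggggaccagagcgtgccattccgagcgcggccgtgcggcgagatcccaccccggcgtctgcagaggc
The first listed DTX4 start, which is not printed, is poorer in G and C (32.7%) than the second (67.7%). HES1 itself binds N boxes (CACNAG, or CTNGTG on the other strand), through which it represses its own gene. The HES1 window holds 4 of them, a number reached by 0.293% of all promoters, while 38.0% hold at least 1. A match is a description of the sequence and shows no binding.

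**Figure D3:**
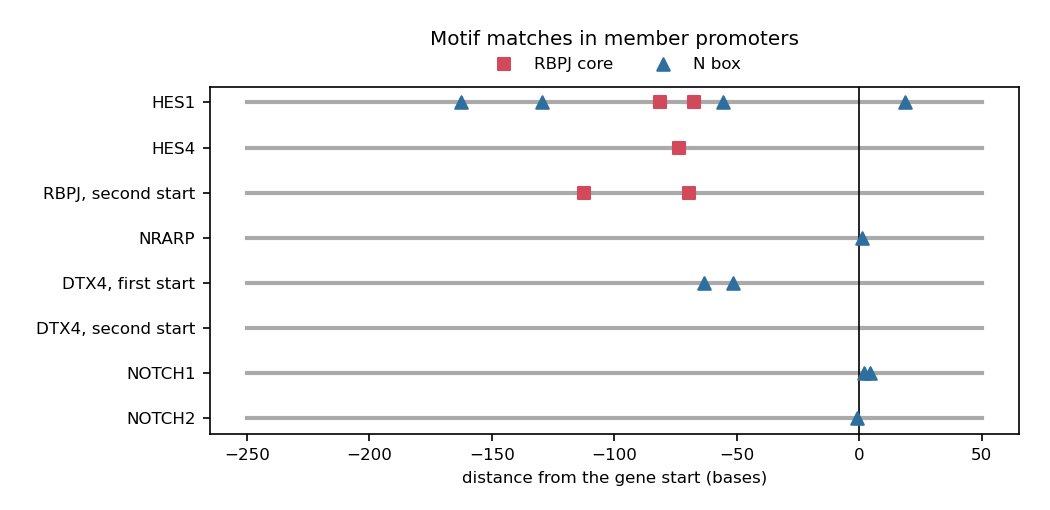
Motif matches (squares, RBPJ core; triangles, N box) are drawn by distance in bases from each gene start in 8 of the 12 member windows of 300 bases. HES1 is the 1 window drawn that holds both motifs, with 2 RBPJ cores and 4 N boxes.

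The other repressor genes gave smaller or no changes. HES4, a HES1 relative, was read by probe set 227347_x_at alone, at 5.11, 5.25 and 5.56 in DMSO and 5.98, 5.54 and 5.90 in CA. The lowest CA value lay just under the highest DMSO value. The change was 0.50 with a wide error (SE 0.15, 95% confidence interval 0.15 to 0.85, limma adjusted p = 0.127 over all probe sets). HEY1, a Hairy-related repressor, was at a change of 0.02 on both of its probe sets, 218839_at and 44783_s_at (95% confidence intervals -0.22 to 0.25 and -0.20 to 0.24), and its groups overlapped throughout. Its DMSO means were 5.13 and 4.43, below the array medians of 5.59 to 5.62. In all, 10 of the 23 member probe sets had a DMSO mean below the lowest median, among them those of HES4 and DTX1. At such a level a change may not register in full.

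NRARP encodes an ankyrin-repeat protein that binds the intracellular domain and RBPJ and dampens the signal. Its 1 probe set, 226499_at, was at 8.38, 8.34 and 8.31 in DMSO and at 8.65, 8.64 and 8.64 in CA. Every CA value was higher, with a change of 0.30 (SE 0.05, 95% confidence interval 0.19 to 0.41, limma adjusted p = 0.0149 over all probe sets). This per probe set call was lost without DMSO replicate 2 or 3 or CA replicate 1, 2 or 3 (adjusted p of 0.0590 to 0.0663), while the change stayed at 0.28 to 0.32. Adjusted over the 19775 genes it held with each of the 6 arrays left out (0.0139 to 0.0241).

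The Deltex genes, named for a cytoplasmic regulator of Notch and encoding ubiquitin ligases, went separate ways. DTX4 (212611_at) was at 8.13, 8.22 and 8.23 in DMSO and at 10.14, 10.21 and 10.22 in CA. The distance between groups was 2.00 (SE 0.05, 95% confidence interval 1.88 to 2.12, limma adjusted p = 4.29e-05), well beyond the spread within either group, and it was the fifth highest rise of the 19775 genes. HES1 ranked at 11 and NRARP at 756 in the same order. DTX1 (227336_at), a classical Notch target, was at 5.18, 5.18 and 5.2 in DMSO and 5.10, 5.06 and 5.14 in CA. It was thus slightly lower in all 3 CA samples, by 0.09, but not called (95% confidence interval -0.20 to 0.02, limma adjusted p = 0.372). The 5 probe sets of DTX3 (222022_at, 235721_at, 49049_at, 221835_at and 49051_g_at) differed by -0.09 to 0.14, with overlapping groups and limma adjusted p of 0.553 to 0.796. So DTX4 rested on 1 probe set, and no second one was there to compare.

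**Figure D4:**
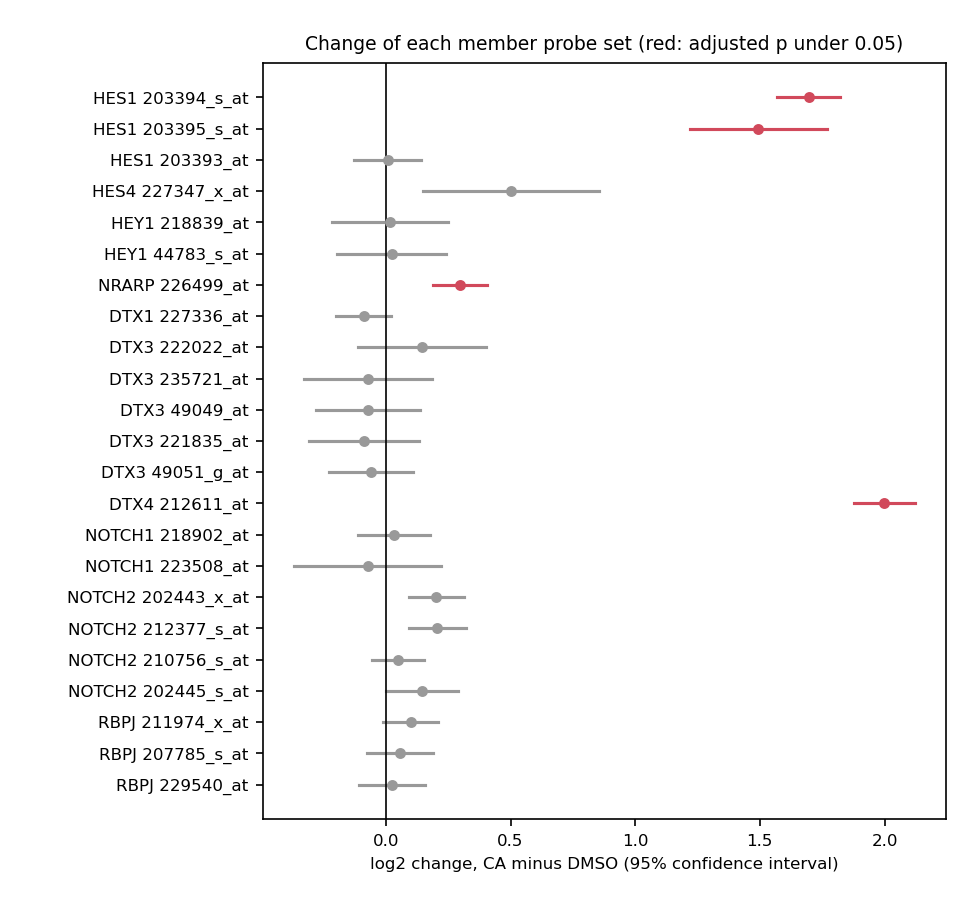
Points are the log2 change (CA minus DMSO) of each member probe set with its 95% confidence interval, red where the adjusted p was under 0.05. The 4 red points are DTX4 (2.00), HES1 (1.70 and 1.49) and NRARP (0.30), and the third HES1 probe set is at 0.01.

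Of the receptor genes, NOTCH2 was slightly higher in CA on all 4 of its probe sets, while the values of NOTCH1 overlapped. NOTCH2 probe set 202443_x_at was at 11.16, 11.16 and 11.10 in DMSO and 11.37, 11.32 and 11.34 in CA. Probe set 212377_s_at was at 10.67, 10.71 and 10.62 in DMSO and 10.86, 10.89 and 10.87 in CA. All CA values were above all DMSO values in both, by 0.20 and 0.21, and both just missed the per probe set threshold (limma adjusted p = 0.0595 and 0.0629). These calls turned on which probe sets were tested: over those with a mean log2 of at least 5 both passed (limma adjusted p = 0.0184 and 0.0206), as they did over those with 1 gene symbol (0.0445 and 0.0475). The remaining 2 NOTCH2 probe sets, 210756_s_at and 202445_s_at, differed by 0.05 and 0.15, again without overlap and uncalled. Per gene, on 202443_x_at, NOTCH2 passed (limma adjusted p = 0.0210 over the genes), a call lost with each of the 6 arrays left out (0.0553 to 0.0793) and with the probe set of largest variance (0.0738). A further probe set, 227067_x_at, is annotated to NOTCH2 together with its NOTCH2NL relatives, 5 genes in all, and was left out of the members, and whether transcripts of these near-identical copies also reach the other NOTCH2 probe sets was not tested. It differed by 0.11 (SE 0.05, limma adjusted p = 0.340).

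NOTCH1 was read by 218902_at at 8.76, 8.87 and 8.86 in DMSO and 8.78, 8.86 and 8.94 in CA, which overlap. Its change was 0.03 (95% confidence interval -0.11 to 0.18), and that of 223508_at was -0.07 (-0.37 to 0.22). RBPJ, which holds the intracellular domain on DNA, was read by 3 probe sets. Probe set 211974_x_at was at 12.30, 12.24 and 12.27 in DMSO and 12.38, 12.33 and 12.38 in CA, higher in all 3 CA samples by 0.10 but uncalled (95% confidence interval -0.01 to 0.21, limma adjusted p = 0.318). Probe sets 207785_s_at and 229540_at differed by 0.06 and 0.02, with overlapping groups. The transcripts that encode receptor and DNA-binding factor thus did not pass the test per probe set, and their protein and the cleaved domain were not measured.

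The wider pathway was read per gene from a list of 77 genes in 10 roles that includes the members. This list too was chosen with earlier results of these data known, and 73 of its genes were measured. Of these, 9 were higher and 7 lower (12.3% and 9.59%), while 11.1% of all genes were called, 6.64% higher and 4.49% lower, and the median change was 0.03 against -0.00 over all genes. Among the 63 that are no member, 5 were higher and 7 lower. Among the 10 members 4 were higher and 0 lower, since NOTCH2 passes per gene. NOTCH2, MFNG, DTX2, DTX3L, KDM5A, TLE2 and HES7 were called per gene only, with no probe set called over all probe sets. With any 1 array left out, 5 or 6 of the 73 were higher and 2 to 4 lower, while the share of all genes called fell to between 5.93% and 6.73%, and DTX4, HES1, JAG1, DLL1, NRARP, APH1B and CDKN1A were called in each of the 6 such fits.

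The ligand genes held the largest rises outside the members. JAG1, the gene of a Notch ligand, was at 12.05, 12.12 and 12.10 in DMSO and 12.65, 12.72 and 12.69 in CA on the probe set used per gene, 209099_x_at. The groups did not overlap, and JAG1 rose 1.51-fold (0.60, SE 0.04, limma adjusted p = 3.55e-04 over the genes). Per probe set, 4 of its 6 were called higher (0.58 to 0.71), and 209097_s_at and 229924_s_at differed by 0.12 and 0.08 and were not called. Groups did not overlap on 209097_s_at and did on 229924_s_at. All 6 JAG1 probe sets end in _x_at or _s_at. DLL1, the gene of a Delta-like ligand, was at 10.49, 10.47 and 10.47 in DMSO and 10.86, 10.92 and 10.92 in CA on probe set 224215_s_at. It rose 1.34-fold (0.42, SE 0.04, limma adjusted p = 0.00109), but its second probe set, 227938_s_at, was at -0.07, and the mean of both was not called (0.18, adjusted p = 0.0719). DLL3, DLL4 and JAG2 were not called, so 2 of 5 ligand genes rose and 0 fell (4 and 0 at an unadjusted limma p under 0.05). At that unadjusted threshold 13.6% of all genes were higher and 11.7% lower.

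Outside the ligands, DTX4 and HES1, the called genes changed by at most 0.46 in size. In receptor glycosylation, 0 of 5 rose and 1 fell (0 and 1 unadjusted), the fringe MFNG (-0.20, limma adjusted p = 0.0211), not called when any 1 array was removed. MFNG probe set 213783_at was at 0.06, and the mean of all its probe sets was not called (-0.13, limma adjusted p = 0.145). In receptor cleavage, 0 of 8 rose and 1 fell (2 and 1 unadjusted), APH1B, a gamma-secretase subunit (-0.31, SE 0.04, limma adjusted p = 0.00664). In endocytosis and ubiquitin ligases, 2 of 12 rose, DTX4 and DTX2 (0.24), and 1 fell, DTX3L (-0.20). DTX2 was called in 1 and DTX3L in 0 of the 6 fits with an array left out. Among nuclear factors, 0 of 9 rose and 1 fell (3 and 2 unadjusted), the acetyltransferase KAT2B, at 6.97, 7.12 and 7.06 in DMSO and 6.51, 6.52 and 6.75 in CA (-0.46, SE 0.08, limma adjusted p = 0.0146). That call held in 2 of the 6 fits.

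Among 10 corepressors measured, 2 rose, TLE2 (0.24) and the demethylase KDM5A (0.16), and 1 fell, the deacetylase HDAC1 (-0.24). TLE2 and HDAC1 were each called in 1 and KDM5A in 0 of the 6 fits with an array left out. The mean of all KDM5A probe sets was at 0.02, and that of TLE2 was not called (0.21, limma adjusted p = 0.0766). None of the 4 genes of the intracellular domain's kinases and turnover was called by limma: CDK8 was at 0.06 (95% confidence interval -0.04 to 0.16), CDK19 at -0.02 (-0.10 to 0.07), cyclin C (CCNC) at 0.01 and FBXW7 at 0.14 (0.01 to 0.27), the 1 of the 4 with an unadjusted p under 0.05. Of 9 HES and HEY genes, 1 rose, HES1, and 1 fell, HES7 (-0.24), called in 1 of the 6 fits. Of 7 other targets measured, NRARP rose and CDKN1A, which encodes the cell-cycle inhibitor p21, fell (-0.45, SE 0.05, limma adjusted p = 0.00269). MYC was at 0.09 (limma adjusted p = 0.179). CCND1 was not called per gene (0.22, limma adjusted p = 0.296), though 1 of its 2 probe sets was called higher per probe set.

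**Figure D5:**
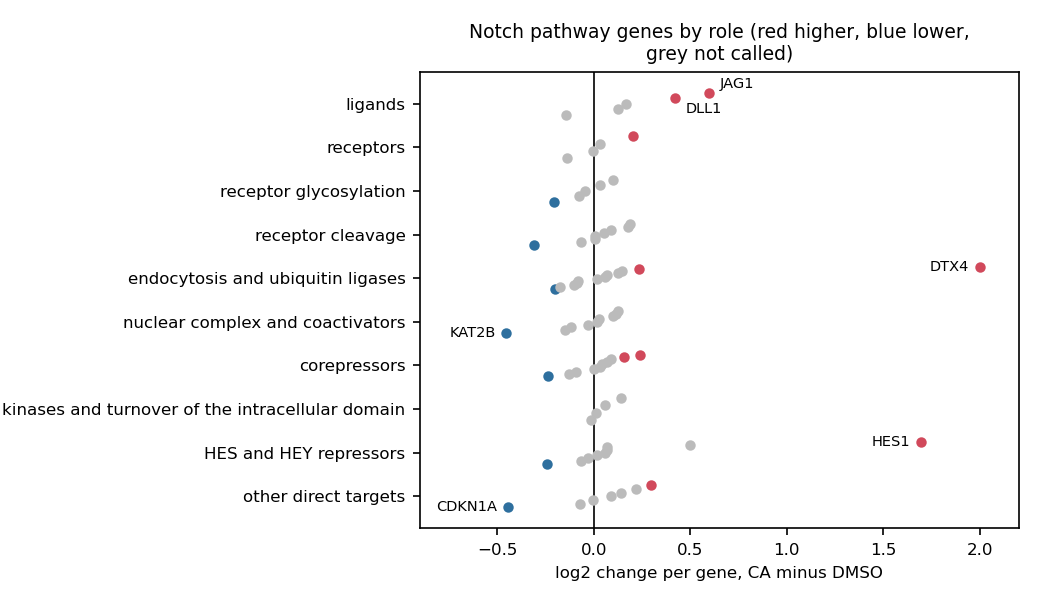
Each point is the log2 change per gene (CA minus DMSO) of 1 of the 73 measured pathway genes, by role (red, called higher; blue, called lower; grey, not called). DTX4 and HES1 stand apart at 2.00 and 1.70, the ligand genes JAG1 and DLL1 follow at 0.60 and 0.42, and most others lie near 0.

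The genes most like HES1 and DTX4 were found by the Euclidean distance between log2 values centred on the DMSO mean, over the 6 arrays and all 19775 genes. Nearest to HES1 were CARINH, a noncoding RNA next to IRF1 (distance 0.0713, change 1.69), the metalloprotease gene ADAMTS17 (0.144, 1.63) and TNF (0.212, 1.68). Nearest to DTX4 were the cytokine gene LTB (0.211, 2.04), GAS1 (0.233, 2.01) and the guanylate-binding protein gene GBP5 (0.285, 1.99). The distance mainly compares the size of the rise, since each group holds 3 arrays.

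The arrays of a group correlated at 0.998 across probe sets and arrays of different groups at 0.996 to 0.997, and no array stood apart. The 8 measured myeloid and MLL leukaemia markers stood at 4.36 (CD14) to 13.38 (LYZ) in DMSO. FLT3 was at 11.69, MEIS1 at 9.70, MPO at 7.82 and SPI1 at 5.51. Per gene, MEIS1 rose (0.25, limma adjusted p = 0.0179), and CSF1R (-0.39, 0.0130) and ITGAM (-0.45, 0.00377) fell, and their part in the Notch values was not tested. None of the 7 T cell, 4 B cell, 4 erythroid and 7 epithelial or stromal markers measured was called by limma (2 were higher and 0 lower at an unadjusted p under 0.05). They differed by -0.10 to 0.28 and stood at 3.39 to 7.34 in DMSO, which overlaps the range of the myeloid markers. Levels of different probe sets cannot be compared, so these values do not rank the lists. Fewer cells with a transcript and less of it per cell cannot be told apart in such pooled RNA. With arrays centred on reference genes, 72.7% of the calls over all probe sets were higher, against 59.9%. The 4 member calls held and NOTCH2 202443_x_at was called too (0.23, limma adjusted p = 0.0412).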

How the data were processed

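RNA of 3 DMSO and 3 CA samples (24 h) was measured on Affymetrix U133 Plus arrays, 1 per sample, from 100 ng of RNA. Per the submitters' processing notes, the authors made the deposited log2 values by RMA in the affy package, which corrects background, quantile-normalizes arrays and summarises probe sets, and compresses large folds. Their versions: not given in the sources used here. Of 54675 rows, 62 control probe sets were left out, leaving 54613. The platform annotation gave 41091 probe sets 1 gene symbol and 1801 several, and 11721 were unnamed. Symbols were updated by Entrez number (41037 matched).

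The groups were compared with lmFit and eBayes of limma 3.58.1 (R 4.3.3), 2-sided, per probe set and, by the probe set of highest mean, per gene (19775), with Benjamini-Hochberg adjustment over each table and calls under 0.05. Probe sets of 1 gene and control signals were compared by exact permutation. The array number limits the precision. The fit was tested on simulated data. The text names every member probe set, up to 4 called genes per role, the kinase genes and the 3 genes nearest HES1 and DTX4; ligand probe sets and other genes were named after their values were seen. Members, lists and tests were chosen with earlier results of these data known. Of the wider list, 4 genes were not analysed here.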

Additional observations from a re-analysis of the deposited data

How the results depend on the processing

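With Benjamini-Hochberg adjustment, DTX4 and the HES1 probe sets 203394_s_at and 203395_s_at kept their direction and call in every alternative fit that held them. With any 1 array left out, 3 to 4 member probe sets were called higher and 0 lower, while 2.27% to 2.43% of all probe sets were called. The count was 8 with an intensity trend and robust moderation, where 11.1% of all probe sets were called. It was 6 over probe sets with a mean log2 of at least 5 (19 measured, 13.8% of all tested called). It was also 6 over those of at least 6 (13 measured, 22.6%) and over those with 1 gene symbol (6.55%). Reference-gene centring gave 5 (5.06%) and Holm adjustment 2 (0.256%). Without _x_at and _s_at probe sets it was 2 (13 measured, 3.68%). In the wider list, 5 to 6 genes were higher and 2 to 4 lower with any 1 array left out, in place of 9 and 7, as the share of all genes called went from 11.1% to between 5.93% and 6.73%. The count of higher genes was 16 with the intensity trend, where 19.3% of all genes were called. It was 3 by Holm (0.703% of all genes called) and 3 at 1.5-fold (1.45%). The probe set of largest variance gave 5 (7.14%), and leaving out _x_at and _s_at probe sets gave 3 (57 measured, 7.81%). That of lower genes was 0 by Holm, 0 at 1.5-fold and 4 without those probe sets. It was 4 with arrays centred on reference genes (11.6%), an alternative chosen after seeing the data. With the replicate block, 5 were higher and 3 lower, where 5.65% of all genes were called. NRARP was then at a limma adjusted p = 0.0718 per probe set but kept its call per gene (0.0310). NOTCH2 lost its call per gene with the block (limma adjusted p = 0.0755). Same-numbered samples did not deviate together (r of -0.01, 0.03 and -0.03, against -0.10 to 0.10 for other pairs). With 3 arrays per group this cannot show whether they were handled as pairs. Per probe set, calls over all probe sets fell from 1639 higher and 1097 lower to 768 and 341 with the block.

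The difference in change between 203394_s_at and 203395_s_at was 0.11 to 0.33 with any 1 array left out. Uncalled members near 0 changed sign. With 1 array left out, the lowest and highest values were -0.040 and 0.034 for 203393_at, -0.056 and 0.10 for 218839_at (also per gene for HEY1), -0.051 and 0.085 for 44783_s_at, -0.0057 and 0.073 for 218902_at (also per gene for NOTCH1), -0.16 and 0.068 for 223508_at, -0.013 and 0.054 for 229540_at, -0.15 and 0.0026 for 221835_at, -0.17 and 0.012 for 235721_at and -0.16 and 0.0043 for 49049_at. Per gene, HEY1 was at -0.0031 with array weights. With probe sets averaged per gene, DTX3 was at -0.030 and NOTCH1 at -0.020, and NOTCH1 was at -0.073 on its probe set of largest variance. The cause of these moves was not tested.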
